A study of Rattus norvegicus with 8 samples.

Results

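Genes of fibroblast growth factor (FGF) and platelet-derived growth factor (PDGF) signalling were followed in 2 vessels of newborn rats, the ductus arteriosus (DA) and the aorta. Members were taken by gene symbol: every FGF, FGF receptor, Sprouty (Spry) and Spred gene with a number in its symbol, the PDGF genes Pdgfa, Pdgfb, Pdgfc and Pdgfd, the receptor genes Pdgfrb, Pdgfrl and Fgfrl1, the carrier gene Fgfbp1, and the response genes Dusp6, Etv4 and Etv5. This gave 44 of the 14506 genes with a single symbol on the array, each measured by 1 probe set.

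The DA is the fetal vessel that connects the pulmonary artery with the aorta and closes after birth. The 4 groups, each with 2 Affymetrix Rat Gene 1.0 ST arrays, were DA of Brown-Norway (BN) rats, aorta of BN rats, DA of Fischer344 (F344) rats and aorta of F344 rats, all full-term neonates taken 1 h after birth. BN is an inbred strain in which the ductus is known to close incompletely, and F344 is the inbred strain it was set against. The RNA of each array was from pooled tissues, the labels do not say that replicates were separate animals or litters, and p-values therefore measure only the spread between these samples.

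FGFs are secreted ligands that bind receptor tyrosine kinases together with heparan sulfate or a klotho protein, and PDGFs bind related kinases on smooth muscle cells and fibroblasts. Both families activate the RAS and ERK cascade, which induces its own inhibitors of the Sprouty, Spred and Dusp families and the ETS transcription factors Etv4 and Etv5. In vessel walls, PDGFs recruit mural cells and drive smooth muscle growth and migration, and Fgf2 is a smooth muscle mitogen, processes that also shape the thickening wall of a closing ductus.

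The upstream sequences of 5 of the 9 members that differed between the vessels in the average over strains are given here. Fgf7 and Fgf16 were lower in DA, and Fgf10, Fgfr2 and Pdgfd were higher, Fgf10 only in the average. Sequences of the other members that differed (Dusp6, Fgf13, Pdgfc and Pdgfrl) are not printed. Each sequence is the 250 bases before the start of the gene in RefSeq (assembly GRCr8), written 5′ to 3′ in the direction of the gene. The positions are chr3:133735377-133735626 on the plus strand for Fgf7, chrX:74882745-74882994 on the plus strand for Fgf16, chr2:52533689-52533938 on the plus strand for Fgf10, chr1:194280915-194281164 on the minus strand for Fgfr2 and chr8:11773258-11773507 on the plus strand for Pdgfd. Capitals mark a match to the TATA box core TATAAA or to the AP-2 core GCCNNNGGC, searched on both strands. A match on the opposite strand appears as its reverse complement, and the Fgf10 and Fgfr2 sequences held no match.
Fgf7: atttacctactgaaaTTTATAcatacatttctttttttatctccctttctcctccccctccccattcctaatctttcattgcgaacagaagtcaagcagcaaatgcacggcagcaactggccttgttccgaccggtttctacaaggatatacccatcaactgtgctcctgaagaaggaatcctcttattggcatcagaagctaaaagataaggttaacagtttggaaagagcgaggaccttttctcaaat
Fgf16: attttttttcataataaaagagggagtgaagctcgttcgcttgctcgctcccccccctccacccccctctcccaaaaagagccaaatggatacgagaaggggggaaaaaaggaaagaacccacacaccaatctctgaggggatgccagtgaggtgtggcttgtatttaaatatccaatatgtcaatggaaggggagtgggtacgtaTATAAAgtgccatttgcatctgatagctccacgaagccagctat
Fgf10: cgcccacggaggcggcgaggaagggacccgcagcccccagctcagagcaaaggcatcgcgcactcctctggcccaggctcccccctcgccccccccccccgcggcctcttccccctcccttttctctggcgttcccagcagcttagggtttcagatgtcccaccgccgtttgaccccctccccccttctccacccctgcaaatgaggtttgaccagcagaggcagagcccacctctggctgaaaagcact
Fgfr2: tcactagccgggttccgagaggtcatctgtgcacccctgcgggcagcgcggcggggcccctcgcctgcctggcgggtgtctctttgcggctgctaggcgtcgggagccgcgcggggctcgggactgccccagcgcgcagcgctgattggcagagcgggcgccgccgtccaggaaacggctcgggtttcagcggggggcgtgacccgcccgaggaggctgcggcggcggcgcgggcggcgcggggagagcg
Pdgfd: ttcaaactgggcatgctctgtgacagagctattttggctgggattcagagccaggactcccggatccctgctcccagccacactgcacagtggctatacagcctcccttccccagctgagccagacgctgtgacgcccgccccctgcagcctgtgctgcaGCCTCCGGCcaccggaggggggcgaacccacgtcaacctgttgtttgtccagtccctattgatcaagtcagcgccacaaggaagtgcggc

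Of the 44 members, 36 had an upstream sequence in the RefSeq table. The TATA box core was found in 5 of these 36 (13.9%), namely Fgf5, Fgf7, Fgf16, Fgf21 and Spry3, and in 13.1% of the 27457 promoters of the same length. In Fgf16 it lay 44 to 39 bases before the start, and in Fgf7 it lay on the opposite strand, 235 to 230 bases before the start. The AP-2 core was found in 6 members (16.7%), Etv5, Fgf8, Fgf22, Fgfrl1, Pdgfd and Spry2, against 13.0% of all promoters, and in Pdgfd it lay 90 to 82 bases before the start. A core of ETS factors, CCGGAA, was found in Spry2 and Spry4 (5.56%) against 13.4% of all promoters. The share of G and C was 41.6% in the Fgf7 sequence, 47.2% in Fgf16, 67.2% in Fgf10, 76.8% in Fgfr2 and 61.6% in Pdgfd, with a median of 60.0% over the members and 52.0% over all promoters. These are descriptions of the letters and not of bound factors, and no match says only that the letters are absent from these windows.

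Values are log2 array values, so 1 unit is a 2-fold difference. Levels of different genes cannot be set against each other, because probe sets differ in brightness at the same amount of RNA. A gene was called dim where no group mean exceeded 7.48, the median of all gene values, which held for 24 of the 44 members and 46.4% of all genes. As a guide to the dim end of each array, the 95th percentile of 1283 genes of odorant, pheromone, taste and trace amine receptors (chemosensory receptor genes) was 6.51 and 6.84 on the BN DA arrays, 6.20 and 6.56 on the BN aorta arrays, 7.16 and 7.43 on the F344 DA arrays and 6.32 and 6.38 on the F344 aorta arrays. This level was highest in F344 DA, and 16 members lay above it on all 8 arrays and 7 members on none.

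All groups held strong smooth muscle markers, with a mean of 9 markers between 11.26 and 11.96 on every array. Markers of other cells differed between groups. The mean of 12 blood endothelial markers was 9.08 and 8.82 in BN DA, 8.90 and 8.94 in BN aorta, 8.56 and 8.49 in F344 DA and 9.09 and 8.99 in F344 aorta. The mean of 6 lymphatic endothelial markers was 8.24 on both BN DA arrays, 7.36 and 7.65 in BN aorta, 6.94 and 7.04 in F344 DA and 7.67 and 7.01 in F344 aorta. The mean of 13 macrophage markers was 7.20 and 7.54 in BN DA, 7.70 and 7.69 in BN aorta, 7.03 and 6.94 in F344 DA and 7.55 and 7.35 in F344 aorta. The mean of 9 lymphocyte and thymocyte markers was 7.23 on BN DA replicate 1 and between 5.97 and 6.11 elsewhere, and the mean of 8 erythroid markers was highest, at 8.53, on the same array. In such bulk samples, fewer cells of a type and less RNA per cell cannot be told apart.

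The BN DA replicates stood further apart than those of the other groups. BN DA replicate 2 was higher than replicate 1 for 36 of 44 members (81.8%), against 55.3% of all genes, with a median gap of 0.20, and 5 members were over 0.5 apart. BN aorta replicate 2 was higher for 31 members (70.5%), F344 DA replicate 2 for 22 and F344 aorta replicate 2 for 21. Each call printed below with its difference and test was recomputed without each array, and its losses are given beside it. Calls that enter only a count over a list or over the markers were not followed in this way.

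**Figure D1:**
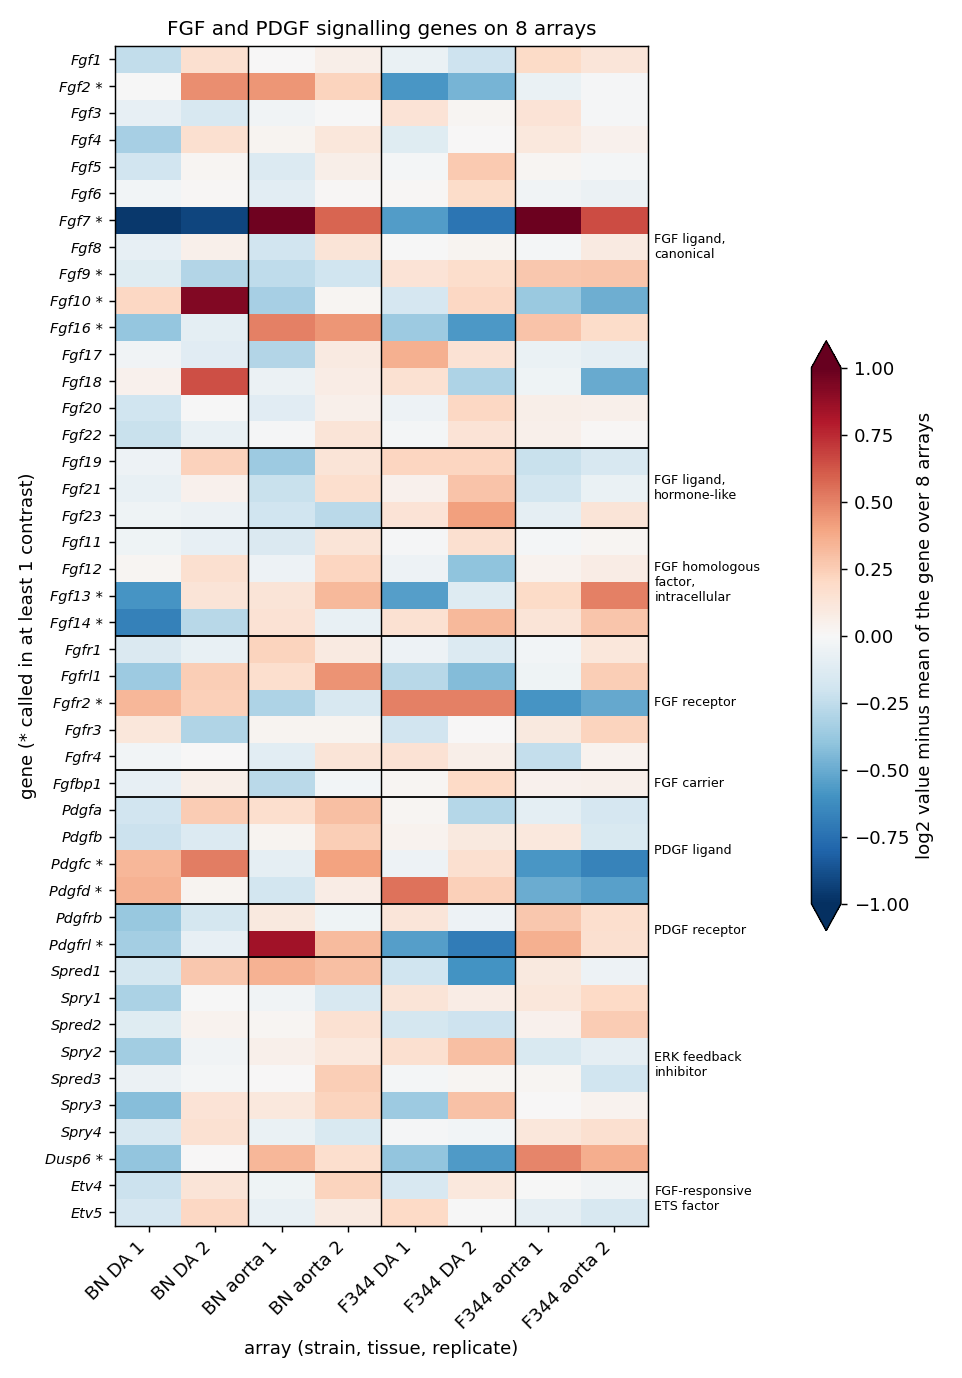
Log2 value of each of the 44 genes (rows, grouped by role) on each of the 8 arrays (columns), as the difference from the mean of the gene over all arrays; red is higher and blue lower, with the colour scale ending at 1 log2 unit, and asterisks mark the 12 genes called in at least 1 contrast. Fgf7 is blue on all 4 DA arrays and red on all 4 aorta arrays.

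DA and aorta were compared within each strain and as an average over strains, which shows how the vessels differ shortly after birth. In F344, 7 of 44 members differed: Fgfr2, Pdgfc and Pdgfd were higher in DA, and Fgf7, Fgf16, Dusp6 and Pdgfrl were lower. In BN, Fgf7 and Fgf16 were lower in DA and no member was called higher, with 9 members (of 44) and 14.0% of all genes at an unadjusted limma p under 0.05. Averaged over strains, 9 differed, with Fgf10 joining the higher genes and Fgf13 the lower ones. Called here means a limma p below 0.05 once adjusted by the Benjamini-Hochberg method across the 14506 genes.

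These counts were near those of all genes in F344 and in the average. Called members made up 15.9% in F344, against 14.0% of all genes, where 8.87% were called higher and 5.12% lower. In BN they made up 4.55%, against 1.81% of all genes, with 0.986% higher and 0.82% lower. In the average they made up 20.5%, against 16.6% of all genes, with 10.1% higher and 6.47% lower. The shares of all genes moved with single arrays, and in F344, BN and the average they rose without either BN DA array. Leaving out a single F344 array lowered the share in F344. In BN it was 0.11% and 0.662% without BN aorta replicates 1 and 2, 0.786% without either F344 DA array, 0.827% without either F344 aorta array, and 4.14% and 3.12% without BN DA replicates 1 and 2. In the average it was 9.41% without BN aorta replicate 1, 9.38% and 10.2% without F344 aorta replicates 1 and 2, and 9.52% without F344 DA replicate 2. Over the 44 members the median difference was 0.01 in F344, -0.09 in BN and -0.06 in the average, beside medians of -0.04, 0.00 and -0.02 over all genes. The share of all calls that were higher in DA depended on scaling: it was 63.4% in F344 and 60.9% in the average as deposited, and 87.5% and 82.5% after each array was centred on its brighter genes, a step that moved the median of all genes in F344 to 0.16. It was 37.0% and 38.7% without chemosensory receptor genes, and 24.2% and 26.0% without dim genes, so the majority direction over all genes turned with the genes kept. None of the 12 called members changed sign under any scaling tried.

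**Figure D2:**
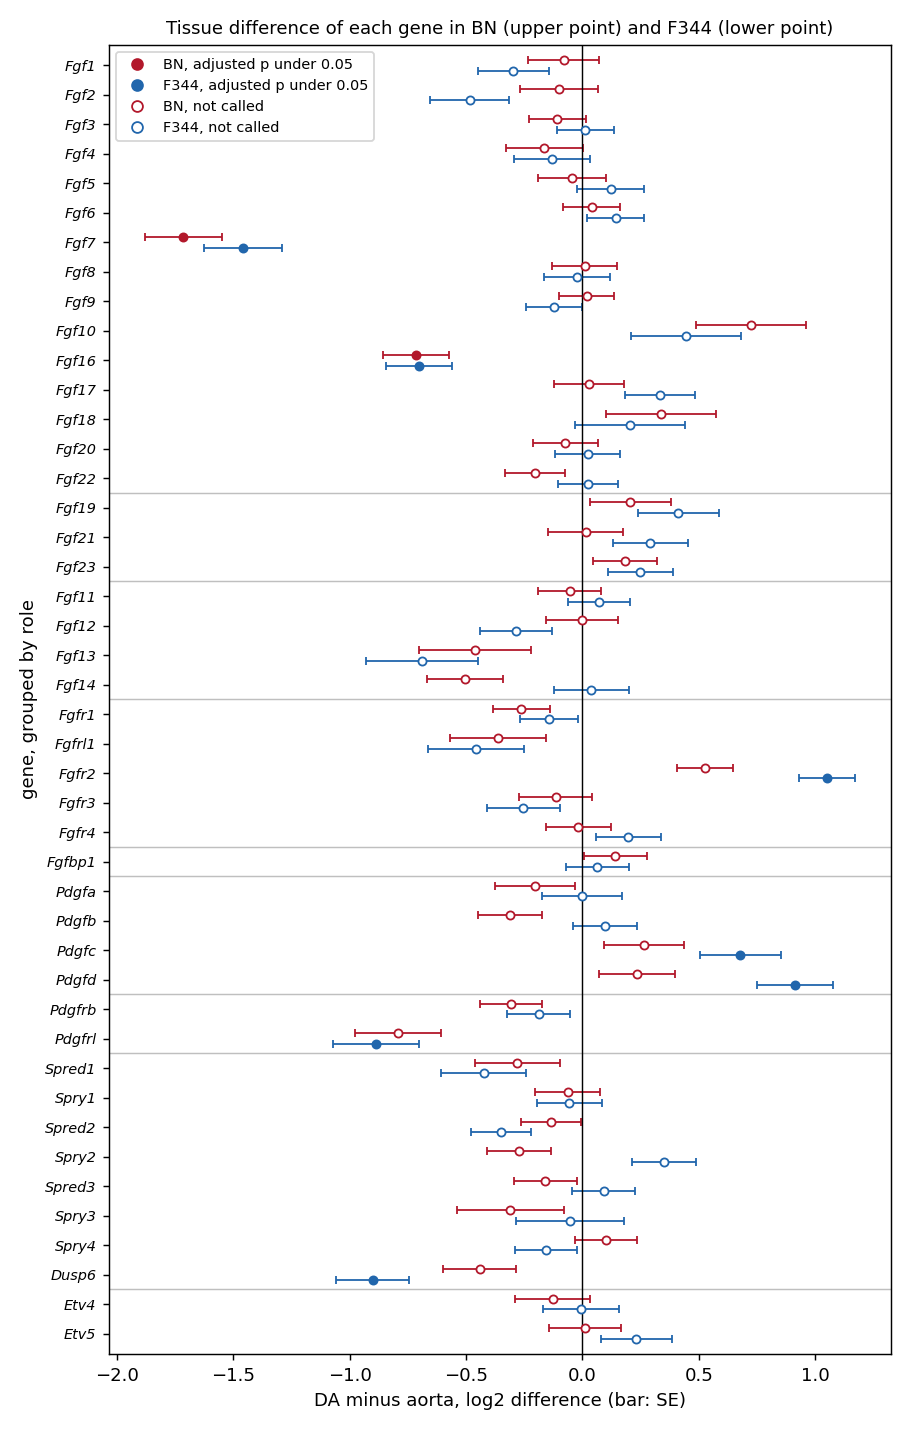
Log2 difference of DA minus aorta for each of the 44 genes (rows, grouped by role), with BN as the upper red point and F344 as the lower blue point; bars are standard errors from limma, and filled points have an adjusted p under 0.05. Fgf7 lies furthest left in both strains (-1.72 in BN and -1.46 in F344), and Fgfr2 furthest right in F344 (1.05).

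Among the 15 canonical FGF ligands, which are secreted and act on nearby cells, Fgf7 and Fgf16 were called lower in DA in both strains, and Fgf10 was called higher in the average. Fgf7 encodes keratinocyte growth factor, which mesenchymal cells make and which acts through the epithelial splice form of FGFR2 (Entrez 29348, probe set 10839434). Its values were 5.89 and 5.93 on the BN DA arrays, 7.82 and 7.43 on the BN aorta arrays, 6.29 and 6.12 on the F344 DA arrays and 7.83 and 7.50 on the F344 aorta arrays. All 4 DA arrays were lower than all 4 aorta arrays, and no DA array but every aorta array was above the chemosensory level. The fitted log2 difference was -1.72 ± 0.17 SE in BN (limma adjusted p = 0.00259), -1.46 ± 0.17 in F344 (adjusted p = 0.00121) and -1.59 ± 0.12 in the average (adjusted p = 0.000166), and no fold is given because DA did not exceed that level. These calls held under every alternative run, with the largest limma adjusted p at 0.039 in BN, 0.0193 in F344 and 0.00228 in the average. The interaction, BN minus F344 of this tissue difference, was -0.26 ± 0.23 (limma adjusted p = 0.775).

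Fgf16 belongs to the FGF9 subfamily, with Fgf9 and Fgf20, and is known for its expression in the heart (Entrez 60464, probe set 10934569). Its values were 6.45 and 6.74 in BN DA, 7.34 and 7.28 in BN aorta, 6.47 and 6.26 in F344 DA and 7.12 and 7.02 in F344 aorta. Every DA array was lower than every aorta array, although the gene was dim in all groups, and no DA array exceeded the chemosensory level. With no fold given for the same reason, the fitted difference was -0.71 ± 0.14 SE in BN (limma adjusted p = 0.043), -0.70 ± 0.14 in F344 (adjusted p = 0.0118) and -0.71 ± 0.10 in the average (adjusted p = 0.00195). The averaged call held in all alternatives run. The F344 call was lost after centring on brighter genes (limma adjusted p = 0.0583), without F344 DA replicate 2 (0.109) and without F344 aorta replicate 1 (0.102) or 2 (0.0584). The BN call was lost without either F344 DA array (limma adjusted p = 0.0764), either F344 aorta array (0.0894), BN DA replicate 1 (0.0731) or BN aorta replicate 1 (0.261) or 2 (0.133). It was lost as well with array weights (0.102), after repeated quantile normalization (0.0637), after centring (0.0843) and in a fit with the 4 BN arrays (0.189).

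Fgf10, which shares the epithelial splice form of FGFR2 with Fgf7 and directs budding of lung and limb, was higher in DA (Entrez 25443, probe set 10813172). It was at 7.67 and 8.39 in BN DA, 7.13 and 7.48 in BN aorta, 7.29 and 7.67 in F344 DA and 7.09 and 6.97 in F344 aorta. Within each strain the DA arrays were higher than the aorta arrays without overlap, whereas the lower F344 DA array lay below the higher BN aorta array. The averaged difference was 0.59 ± 0.17 SE (1.5-fold higher, limma adjusted p = 0.0418). It was not called within a strain, with 0.73 ± 0.24 in BN (limma adjusted p = 0.19) and 0.45 ± 0.24 in F344 (0.238). Fgf10 was above the chemosensory level on all 8 arrays. In the average the chemosensory genes had a median difference of 0.58 in the same direction, whose part in the result was not tested. The averaged call was lost without F344 DA replicate 1 (limma adjusted p = 0.0558) or 2 (0.16), F344 aorta replicate 1 (0.0976) or 2 (0.125), BN DA replicate 2 (0.0601) or BN aorta replicate 1 (0.155), without dim genes (0.0538) and without chemosensory receptor genes (0.0517).

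The other 12 canonical ligands were not called between tissues. Fgf18, which acts in bone and lung growth, was at 8.88 and 9.48 in BN DA, 8.78 and 8.91 in BN aorta, 8.99 and 8.53 in F344 DA and 8.79 and 8.33 in F344 aorta, with overlapping tissues (averaged difference 0.27 ± 0.17 SE, limma adjusted p = 0.312). The 10 canonical ligands called in no contrast at all (Fgf1, Fgf3, Fgf4, Fgf5, Fgf6, Fgf8, Fgf17, Fgf18, Fgf20 and Fgf22) spanned 5.43 to 9.48 over arrays, with averaged tissue differences of -0.19 to 0.27. The hormone-like ligands Fgf19, Fgf21 and Fgf23, which act at a distance with klotho proteins, lay between 5.11 and 6.44 on all arrays and were not called. Fgf21, a metabolic hormone made mainly in liver, was at 6.08 and 6.20 in BN DA, 5.93 and 6.32 in BN aorta, 6.20 and 6.44 in F344 DA and 5.97 and 6.09 in F344 aorta, and its tissues overlapped in BN. Fgf15 was not measured under that symbol. The carrier gene Fgfbp1, whose product releases FGFs from matrix, was at 6.53 and 6.67 in BN DA, 6.34 and 6.58 in BN aorta, 6.63 and 6.81 in F344 DA and 6.65 and 6.66 in F344 aorta (averaged difference 0.10 ± 0.10 SE, limma adjusted p = 0.509).

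The FGF homologous factors stay inside the cell, where they bind voltage-gated sodium channels and do not act as ligands. Of the 4, Fgf13 was called lower in DA in the average (Entrez 84488, probe set 10939919). It was at 6.19 and 6.91 in BN DA, 6.91 and 7.11 in BN aorta, 6.23 and 6.65 in F344 DA and 6.97 and 7.29 in F344 aorta. Tissues were apart in F344 and met at 6.91 in BN, and the gene was dim in every group. Fgf13 was above the chemosensory level on 1 DA array and 4 aorta arrays, so no fold is given. The averaged difference was -0.57 ± 0.17 SE (limma adjusted p = 0.0486), with -0.46 ± 0.24 in BN (adjusted p = 0.46) and -0.69 ± 0.24 in F344 (0.0937). The averaged call was lost without any array except BN DA replicate 2, with limma adjusted p of 0.156 and 0.0641 without F344 DA replicates 1 and 2, 0.0748 and 0.162 without those of F344 aorta, 0.063 without BN DA replicate 1, and 0.1 and 0.121 without BN aorta replicates 1 and 2. Centring (0.153) and leaving out chemosensory receptor genes (0.0591) ended it too. Fgf12 was at 6.87 and 7.01 in BN DA, 6.80 and 7.07 in BN aorta, 6.80 and 6.45 in F344 DA and 6.89 and 6.93 in F344 aorta. Its tissues overlapped in BN, and both F344 DA arrays were lower than both F344 aorta arrays (averaged difference -0.14 ± 0.11 SE, limma adjusted p = 0.415).

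Of the 5 FGF receptor genes, Fgfr2 was called higher in DA and the others were not called. Fgfr2 encodes a receptor tyrosine kinase whose splice forms, read by the same probe set here, bind different FGFs (Entrez 25022, probe set 10726172). Its values were 10.52 and 10.43 in BN DA, 9.88 and 10.03 in BN aorta, 10.69 on both F344 DA arrays and 9.60 and 9.68 in F344 aorta. All 4 DA arrays were higher than all 4 aorta arrays. The difference was 1.05 ± 0.12 SE in F344 (2.07-fold higher, limma adjusted p = 0.00121) and 0.79 ± 0.09 in the average (1.73-fold higher, adjusted p = 0.000608). Both calls held in every alternative run, with the largest limma adjusted p at 0.0179 and 0.00539. In BN the difference was 0.53 ± 0.12 (1.44-fold, limma adjusted p = 0.0689), and the interaction was -0.53 ± 0.17 (adjusted p = 0.398).

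Fgfr1, the receptor most often described in smooth muscle, was at 10.70 and 10.77 in BN DA, 11.07 and 10.93 in BN aorta, 10.79 and 10.71 in F344 DA and 10.82 and 10.96 in F344 aorta. Its averaged difference was -0.20 ± 0.09 SE (limma adjusted p = 0.153), and all DA arrays were lower than all aorta arrays. Fgfrl1, a receptor-like protein without a kinase domain, was at 9.09 and 9.70 in BN DA, 9.62 and 9.90 in BN aorta, 9.17 and 9.02 in F344 DA and 9.41 and 9.70 in F344 aorta (averaged difference -0.41 ± 0.15 SE, limma adjusted p = 0.089), and its tissues overlapped in BN and not in F344. Fgfr3, known for its role in cartilage growth, was dim, at 7.27 and 6.85 in BN DA, 7.18 on both BN aorta arrays, 6.96 and 7.16 in F344 DA and 7.25 and 7.38 in F344 aorta (averaged difference -0.18 ± 0.11 SE, limma adjusted p = 0.302). Fgfr4, which mediates FGF signals in liver, was dim as well, at 6.43 and 6.46 in BN DA, 6.35 and 6.58 in BN aorta, 6.60 and 6.51 in F344 DA and 6.22 and 6.49 in F344 aorta (averaged difference 0.09 ± 0.10 SE, limma adjusted p = 0.585). The averaged differences of these 4 receptor genes lay between -0.41 and 0.09.

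Of the 4 PDGF ligands, Pdgfc and Pdgfd were called higher in DA in F344 and in the average. Both encode ligands with a CUB domain that proteases must remove before they bind a receptor. Pdgfd, a ligand of PDGF receptor beta, was at 9.83 and 9.51 in BN DA, 9.30 and 9.56 in BN aorta, 10.03 and 9.72 in F344 DA and 8.99 and 8.94 in F344 aorta (Entrez 66018, probe set 10907845). DA and aorta were well apart in F344 and overlapped in BN. The difference was 0.91 ± 0.16 SE in F344 (1.88-fold higher, limma adjusted p = 0.00717) and 0.57 ± 0.12 in the average (1.49-fold, adjusted p = 0.00953), against 0.23 ± 0.16 in BN (adjusted p = 0.614). The averaged call held in all alternatives, and the F344 call was lost without F344 DA replicate 1 (limma adjusted p = 0.0591) or F344 aorta replicate 1 (0.0518) or 2 (0.052). The interaction was -0.68 ± 0.23 (limma adjusted p = 0.43).

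Pdgfc was at 9.49 and 9.67 in BN DA, 9.07 and 9.56 in BN aorta, 9.11 and 9.32 in F344 DA and 8.58 and 8.49 in F344 aorta (Entrez 79429, probe set 10816026). Its tissues did not overlap in F344 and overlapped in BN. The difference was 0.68 ± 0.17 SE in F344 (1.6-fold higher, limma adjusted p = 0.0317) and 0.47 ± 0.12 in the average (1.39-fold, adjusted p = 0.0299), against 0.27 ± 0.17 in BN (adjusted p = 0.59). The F344 call was lost without F344 DA replicate 1 (limma adjusted p = 0.0786) or 2 (0.212) or F344 aorta replicate 1 (0.126) or 2 (0.169). The averaged call was lost without those arrays (0.0545, 0.12, 0.0795 and 0.104 in the same order), without BN DA replicate 2 (0.0535) and without BN aorta replicate 1 (0.0938).

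The remaining ligands were not called. Pdgfa, a mitogen of mesenchymal cells, was at 9.34 and 9.78 in BN DA, 9.70 and 9.83 in BN aorta, 9.55 and 9.24 in F344 DA and 9.43 and 9.36 in F344 aorta, and the tissues overlapped in both strains. Pdgfb, the endothelial ligand that recruits mural cells, was dim, at 6.89 and 6.97 in BN DA, 7.13 and 7.35 in BN aorta, 7.14 and 7.20 in F344 DA and 7.21 and 6.95 in F344 aorta. Its DA arrays were lower in BN and overlapped with aorta in F344, and the interaction was -0.41 ± 0.20 SE (limma adjusted p = 0.54).

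The PDGF receptor genes of the set were Pdgfrb and Pdgfrl, and its rule took in no other PDGF receptor gene, so none was analysed here. Pdgfrl encodes a protein that resembles the outer part of a PDGF receptor and has no kinase domain (Entrez 290771, probe set 10791893). It was at 7.67 and 7.93 in BN DA, 8.85 and 8.33 in BN aorta, 7.46 and 7.31 in F344 DA and 8.37 and 8.17 in F344 aorta, and every DA array was lower than every aorta array. F344 DA replicate 2 lay below the chemosensory level of that array (7.43). The difference was -0.89 ± 0.18 SE in F344 (1.85-fold lower, limma adjusted p = 0.0133) and -0.84 ± 0.13 in the average (1.79-fold lower, adjusted p = 0.00287), with -0.79 ± 0.18 in BN (adjusted p = 0.0718). The averaged call held in all alternatives, and the F344 call was lost without F344 DA replicate 1 (limma adjusted p = 0.0532) or 2 (0.109) or F344 aorta replicate 1 (0.109). Pdgfrb, the receptor of mural and smooth muscle cells, was at 10.47 and 10.68 in BN DA, 10.95 and 10.81 in BN aorta, 10.97 and 10.80 in F344 DA and 11.12 and 11.02 in F344 aorta. DA arrays were lower than aorta arrays within each strain, but the averaged difference of -0.25 ± 0.10 did not pass (limma adjusted p = 0.111).

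Of the 8 feedback inhibitors of ERK signalling, Dusp6 was called lower in DA in F344 and in the average and the others were not called. Dusp6 encodes a phosphatase that inactivates ERK and is induced by FGF signals (Entrez 116663, probe set 10895144). It was at 6.89 and 7.29 in BN DA, 7.62 and 7.45 in BN aorta, 6.89 and 6.72 in F344 DA and 7.77 and 7.65 in F344 aorta, and all DA arrays were lower than all aorta arrays. Both F344 DA arrays lay below the chemosensory level (7.16 and 7.43), so no fold is given. The difference was -0.90 ± 0.16 SE in F344 (limma adjusted p = 0.00642) and -0.67 ± 0.11 in the average (adjusted p = 0.00388). In BN it was -0.44 ± 0.16 (limma adjusted p = 0.234), and the interaction was 0.46 ± 0.22 (adjusted p = 0.546). The averaged call held in all alternatives, whereas the F344 call was lost without F344 DA replicate 2 (limma adjusted p = 0.0658) or F344 aorta replicate 1 (0.0627).

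The 7 Sprouty and Spred genes, whose products block RAS or RAF activation, lay between 6.80 and 10.82 and had averaged tissue differences of -0.35 to 0.04. Spry1 was at 10.30 and 10.61 in BN DA, 10.58 and 10.46 in BN aorta, 10.75 and 10.69 in F344 DA and 10.73 and 10.82 in F344 aorta, and its tissues overlapped in both strains. Spry2 was at 7.67 and 7.98 in BN DA against 8.07 and 8.12 in BN aorta, and at 8.18 and 8.32 in F344 DA against 7.86 and 7.93 in F344 aorta. Its DA arrays were the lower ones in BN and the higher ones in F344. The BN difference was -0.27 ± 0.14 SE (limma adjusted p = 0.444), the F344 difference 0.35 ± 0.14 (0.127) and the interaction -0.62 ± 0.20 (0.382), so none was called. The ETS factor genes Etv4 and Etv5, which ERK signals induce, were dim at 5.96 to 7.16 and not called. Etv5 was at 6.78 and 7.16 in BN DA, 6.88 and 7.04 in BN aorta, 7.15 and 6.95 in F344 DA and 6.86 and 6.79 in F344 aorta (averaged difference 0.12 ± 0.11 SE, limma adjusted p = 0.494).

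**Figure D3:**
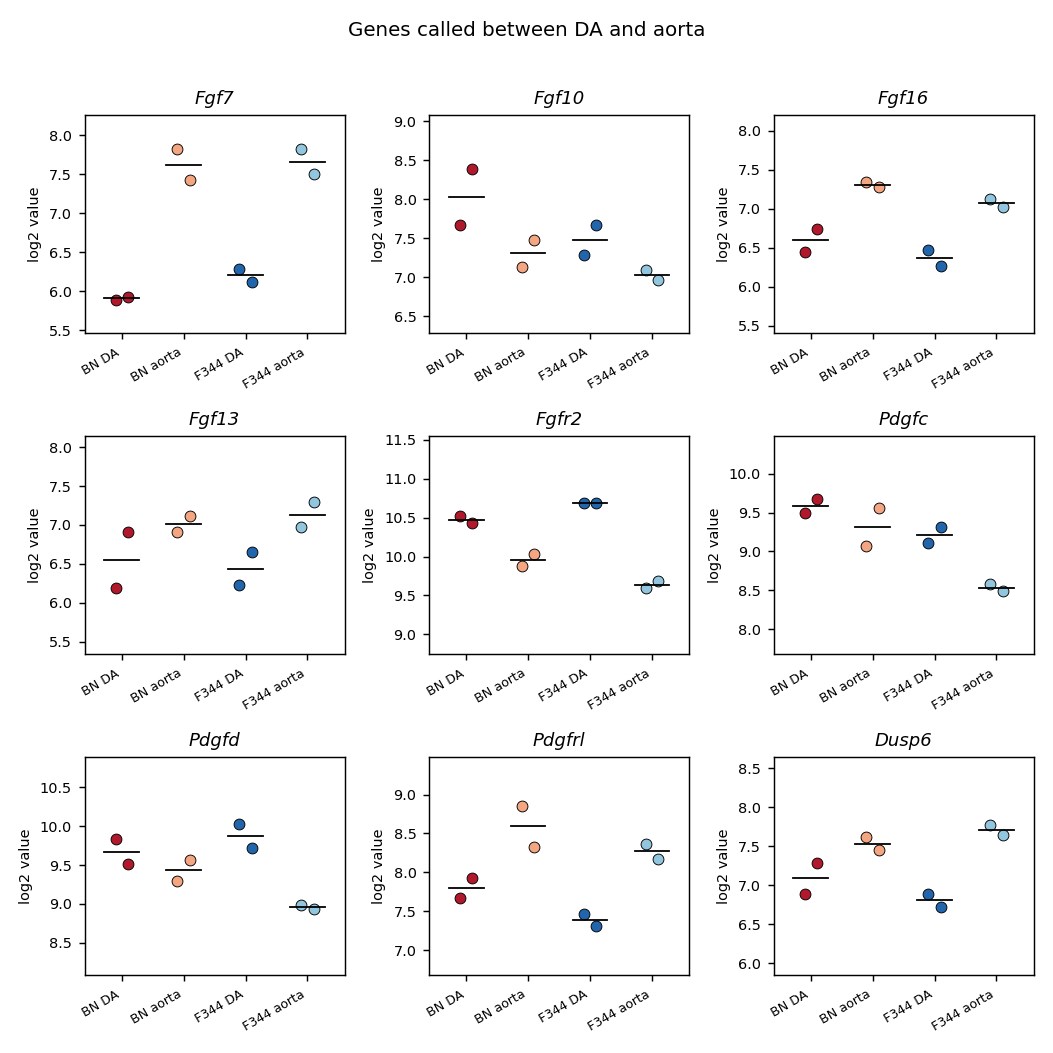
Log2 values of the 9 genes called between DA and aorta, with each array as a point, the group mean as a line, and BN DA, BN aorta, F344 DA and F344 aorta from left to right; every panel spans the same range of log2 units. Fgf7, Fgf16, Pdgfrl and Dusp6 are lower and Fgfr2 higher on all 4 DA arrays than on all 4 aorta arrays, while Pdgfc and Pdgfd overlap between tissues in BN.

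Cell markers differed with tissue beside these genes. Of all genes, 8.87% were called higher and 5.12% lower in F344 DA, and 0.986% higher and 0.82% lower in BN DA. In F344, of 12 blood endothelial markers 6 were called lower in F344 DA and 0 higher, of 13 macrophage markers 3 were called lower and 0 higher, and of 11 adventitial fibroblast markers 3 were called lower (Mfap5, Pi16 and Scara5) and 1 higher (Dpep1). Of 9 mural markers 4 were called higher (Abcc9, Kcnj8, Mcam and Rgs5) and 2 lower (Cox4i2 and Notch3), and of 9 smooth muscle markers 3 were called higher (Actg2, Cnn1 and Des). Of 10 epithelial markers 1 was called higher (Epcam) and 2 lower (Krt8 and Krt18) in F344 DA, and of 9 lymphocyte and thymocyte markers 1 was lower (Cd4). In BN, Rgs5 of 9 mural markers and Acan of 8 cartilage markers were called higher in DA, beside list medians of 0.22 and -0.15. Scara5 of 11 adventitial fibroblast markers and Krt8 of 10 epithelial markers were called lower, beside medians of -0.11 and -0.06. The part of these markers in the results on FGF and PDGF genes was not tested.

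BN and F344 tissue differences came from separate arrays and had the same sign for 31 of 44 members (70.5%), against 68.3% of all genes. Of these members 12 were higher in DA in both strains and 19 lower. Across the 44 members the differences of the strains had a Pearson correlation of 0.82, and across all genes of 0.68, given as a description because genes are not independent. In the interaction 0 members and 0.0% of all genes were called by limma (smallest adjusted p 0.382 among members and 0.107 among all genes). At an unadjusted p under 0.05 there were 4 members, Fgf14, Fgfr2, Pdgfd and Spry2, and 9.67% of all genes. The members called in no contrast with the smallest interaction p were Spry2 and Pdgfb, given above, and Fgf17. Fgf17, of the FGF8 subfamily, was at 6.41 and 6.33 in BN DA, 6.15 and 6.53 in BN aorta, 6.80 and 6.59 in F344 DA and 6.38 and 6.35 in F344 aorta, apart in F344 and overlapping in BN (interaction -0.31 ± 0.21 SE, limma adjusted p = 0.69).

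BN was then compared with F344 within each tissue and as an average over tissues, which asks how the strains differ in the same vessel. In DA, Fgf2 was higher and Fgf14 lower in BN. In aorta 0 members were called. In the average, Fgf2 and Pdgfc were higher and Fgf9 lower in BN. Called members made up 4.55% in DA, against 4.53% of all genes, where 2.43% were called higher and 2.1% lower. In aorta they made up 0.0%, against 0.159% of all genes, and 4 members and 5.22% of all genes had an unadjusted limma p under 0.05 (smallest adjusted p of a member 0.258). In the average they made up 6.82%, against 2.65% of all genes, with 1.63% higher and 1.02% lower. Here too the shares of all genes moved with single arrays. In DA the share was 0.165% and 0.0896% without F344 DA replicates 1 and 2, 2.11% without either F344 aorta array and 8.50% without BN DA replicate 2, and it was 0.813% in a fit with the 4 DA arrays. In aorta it lay between 0.0% and 0.476%. In the average it was 0.379% to 0.469% without any one F344 array, 0.551% and 0.848% without BN aorta replicates 1 and 2, and 7.0% and 5.72% without BN DA replicates 1 and 2. Over the members the median difference was -0.09 in DA, 0.03 in aorta and -0.01 in the average, beside 0.00, 0.00 and -0.01 over all genes. Of all calls, 53.7% in DA and 61.5% in the average were higher in BN as deposited, and 23.9% and 38.1% after centring on brighter genes. The shares were 79.9% and 75.6% without chemosensory receptor genes, and 82.7% and 75.4% without dim genes.

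Fgf2, the basic FGF that lacks a signal peptide and stimulates smooth muscle growth, was at 7.66 and 8.13 in BN DA against 7.08 and 7.20 in F344 DA, and at 8.11 and 7.89 in BN aorta against 7.60 and 7.65 in F344 aorta (Entrez 54250, probe set 10815026). All BN arrays were higher than all F344 arrays, with the lowest BN array (7.66) next to the highest F344 array (7.65). Both F344 DA arrays lay below the chemosensory level (7.16 and 7.43 in that order for replicates 1 and 2), so no fold is given. The difference was 0.76 ± 0.17 SE in DA (limma adjusted p = 0.0382) and 0.56 ± 0.12 in the average (adjusted p = 0.0438), and 0.37 ± 0.17 in aorta (adjusted p = 0.96). The DA call was lost without F344 DA replicate 1 (limma adjusted p = 0.17) or 2 (0.186), either F344 aorta array (0.0721), BN DA replicate 2 (0.0666) or either BN aorta array (0.0544). It was also lost with array weights (0.0515), after repeated quantile normalization (0.0507), cyclic loess (0.0769) or centring (0.0973), and in a fit with the 4 DA arrays (0.106). The averaged call was lost without F344 DA replicate 1 (limma adjusted p = 0.141) or 2 (0.14), F344 aorta replicate 1 (0.136) or 2 (0.163) or BN aorta replicate 1 (0.138) or 2 (0.0829), and after quantile normalization (0.0521), loess (0.0626) or centring (0.1).

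Fgf14, an intracellular homologous factor known from neurons, was at 5.37 and 5.77 in BN DA against 6.20 and 6.37 in F344 DA, and at 6.19 and 5.97 in BN aorta against 6.17 and 6.32 in F344 aorta (Entrez 63851, probe set 10786100). The strains were apart in DA and overlapped in aorta. The gene was dim and above the chemosensory level on 0 arrays, and in DA the chemosensory genes had a median difference of -0.48 in the same direction, whose part in the result was not tested. The fitted DA difference was -0.71 ± 0.16 SE (limma adjusted p = 0.0429), the aorta difference -0.17 ± 0.16 (0.998) and the interaction -0.54 ± 0.23 (0.484). The call was lost without F344 DA replicate 1 (limma adjusted p = 0.124) or 2 (0.257), either F344 aorta array (0.0749), BN DA replicate 1 (0.0961) or either BN aorta array (0.0585). Array weights (0.0606), quantile normalization (0.0679), loess (0.0855) and a fit with the 4 DA arrays (0.11) ended it too.

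Fgf9, a ligand that signals to mesenchyme, was at 6.39 and 6.22 in BN DA against 6.65 and 6.69 in F344 DA, and at 6.26 and 6.31 in BN aorta against 6.78 and 6.79 in F344 aorta (Entrez 25444, probe set 10780813). All BN arrays were lower than all F344 arrays, although the gene was dim in every group and above the chemosensory level on no DA array and 3 aorta arrays. The fitted averaged difference was -0.43 ± 0.08 SE (limma adjusted p = 0.0354), with -0.36 ± 0.12 in DA (0.111) and -0.50 ± 0.12 in aorta (0.321). The averaged call was lost without F344 DA replicate 1 (limma adjusted p = 0.105) or 2 (0.14), F344 aorta replicate 1 (0.12) or 2 (0.163) or BN aorta replicate 1 (0.106) or 2 (0.086), and after quantile normalization (0.0598).

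Pdgfc, whose array values are given above, was higher in BN than in F344 within each tissue without overlap. The averaged difference was 0.57 ± 0.12 SE (1.49-fold higher, limma adjusted p = 0.0472), with 0.37 ± 0.17 in DA (0.252) and 0.78 ± 0.17 in aorta (0.258). The call was lost without F344 DA replicate 1 (limma adjusted p = 0.154) or 2 (0.132), F344 aorta replicate 1 (0.122) or 2 (0.189) or BN aorta replicate 2 (0.104), and after quantile normalization (0.0848), loess (0.0935) or centring (0.122). The interaction was -0.41 ± 0.25 (limma adjusted p = 0.631). Lymphatic endothelial markers differed beside these genes, with 4 of 6 called higher in BN DA than in F344 DA (Ccl21, Flt4, Lyve1 and Prox1). Of all genes, 2.43% were called higher and 2.1% lower in that contrast. Of the 9 mural markers, Cox4i2 was called higher and Abcc9 and Kcnj8 lower in BN DA. Sox17 of 12 blood endothelial, C1qc of 13 macrophage and Cd4 of 9 lymphocyte and thymocyte markers were called higher, beside list medians of 0.42, 0.41 and 0.54. Krt8 of 10 epithelial and Acan of 8 cartilage markers were called higher too, although the list medians were -0.19 and -0.21. The part of these markers in the strain differences was not tested.

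**Figure D4:**
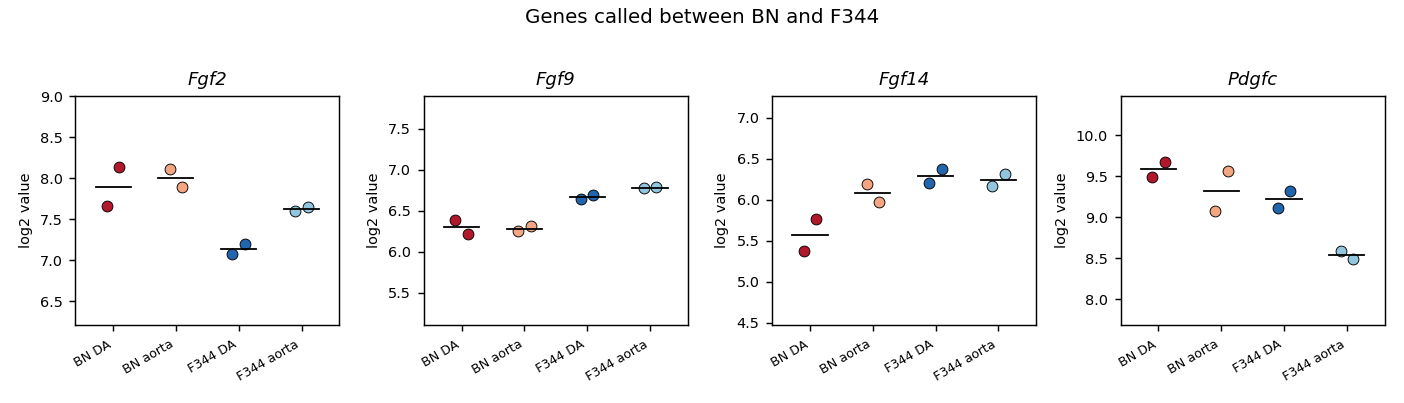
Log2 values of the 4 genes called between BN and F344, with each array as a point, the group mean as a line, and BN DA, BN aorta, F344 DA and F344 aorta from left to right; every panel spans the same range of log2 units. All BN points of Fgf2 lie above and all BN points of Fgf9 below the F344 points, and Fgf14 differs between strains in DA and overlaps in aorta.

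Genes that work with FGF and PDGF receptors were described from lists of their pathways, ordered from the receptor outward. Counts in these lists stand beside 14.0% of all genes called in F344, 1.81% in BN and 16.6% in the tissue average. Between strains 4.53% were called in DA and 2.65% in the average. At an unadjusted limma p under 0.05 there were 14.0% of all genes in BN, 30.2% in the tissue average and 19.0% in the strain average. Of 27 genes between receptor and ERK, 1 was called in F344, Rasa1. In BN 0 were called by limma, with 0 at an unadjusted p under 0.05, and the averages had 0 calls, with 5 genes between tissues and 3 between strains at that p. Rasa1 encodes a GTPase activator that turns RAS off, and was at 10.05 and 9.91 in BN DA, 10.04 and 10.01 in BN aorta, 9.70 and 9.49 in F344 DA and 10.11 and 10.06 in F344 aorta. F344 DA was the low group, with a difference of -0.49 ± 0.13 SE from F344 aorta (limma adjusted p = 0.0324). That call was lost after centring, where the difference was -0.28 (adjusted p = 0.157), after quantile normalization (0.115) and loess (0.102), and without F344 DA replicate 1 (0.0623) or 2 (0.228) or F344 aorta replicate 1 (0.193) or 2 (0.139).

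Of 16 other ERK response genes, Phlda1 was called higher in DA in both strains and the rest were not called between tissues. Phlda1, which FGF and other growth signals induce, was at 8.41 and 7.99 in BN DA, 7.08 and 7.35 in BN aorta, 8.71 and 8.77 in F344 DA and 7.45 and 7.20 in F344 aorta, with all DA arrays higher than all aorta arrays. The difference was 0.98 ± 0.17 SE in BN (1.98-fold, limma adjusted p = 0.0282), 1.42 ± 0.17 in F344 (2.67-fold, adjusted p = 0.00143) and 1.20 ± 0.12 in the average (2.3-fold, adjusted p = 0.000442). The calls in F344 and in the average held in all alternatives. The BN call was lost without either F344 DA array (limma adjusted p = 0.0679), either F344 aorta array (0.0512), or BN aorta replicate 1 (0.226) or 2 (0.0623), with array weights (0.0625) and in a fit with the 4 BN arrays (0.146). Between strains, the phosphatase gene Dusp1 and the early response gene Ier3 were lower in BN in the average, by -0.54 ± 0.10 SE (limma adjusted p = 0.0295) and -0.52 ± 0.10 (0.0343). Both calls were lost without any F344 array or any BN aorta array, with limma adjusted p of 0.0698 to 0.112 for Dusp1 and 0.0618 to 0.168 for Ier3.

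Of 19 genes for heparan sulfate, the sugar chain that FGFs and their receptors bind, 1 was called higher and 3 lower in F344 DA, 0 higher and 1 lower in BN DA, and 1 higher and 3 lower in the average. Gpc3, a glypican that carries these chains, was at 11.81 and 11.82 in BN DA, 12.37 and 12.41 in BN aorta, 11.77 and 11.73 in F344 DA and 12.32 and 12.27 in F344 aorta, lower on all DA arrays. Its difference was -0.58 ± 0.11 SE in BN (limma adjusted p = 0.0406), -0.54 ± 0.11 in F344 (0.0137) and -0.56 ± 0.08 in the average (0.00203), and the averaged call held in all alternatives. The F344 call was lost after centring (difference -0.33, limma adjusted p = 0.103) and without F344 DA replicate 1 (0.0653) or 2 (0.0993) or F344 aorta replicate 1 (0.118) or 2 (0.0778). The BN call was lost without each of the 8 arrays, with limma adjusted p of 0.0519 to 0.221, and with array weights (0.119), centring (0.0898) and the 4 BN arrays alone (0.221).

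The other named heparan sulfate genes were Ndst1, a sulfating enzyme, and Sulf1, which removes sulfate. Ndst1 was at 9.56 and 9.41 in BN DA, 10.04 and 9.77 in BN aorta, 9.74 and 9.48 in F344 DA and 10.27 and 10.08 in F344 aorta, lower on all DA arrays than on all aorta arrays (averaged difference -0.49 ± 0.11 SE, limma adjusted p = 0.0142). That call was lost without F344 DA replicate 2 (limma adjusted p = 0.0663), F344 aorta replicate 1 (0.0694) or BN aorta replicate 1 (0.0605). Sulf1 was at 11.27 and 11.40 in BN DA, 11.29 and 11.20 in BN aorta, 10.57 and 10.46 in F344 DA and 11.02 on both F344 aorta arrays. F344 DA was the low group, with BN minus F344 at 0.82 ± 0.12 SE in DA (1.77-fold, limma adjusted p = 0.013) and DA minus aorta at -0.50 ± 0.12 in F344 (adjusted p = 0.0231). The strain call in DA was lost without F344 DA replicate 1 (limma adjusted p = 0.0674) or 2 (0.138) and in a fit with the 4 DA arrays (0.0594). The tissue call was lost without F344 DA replicate 1 (0.0756) or 2 (0.159) or F344 aorta replicate 1 (0.145) or 2 (0.129), after loess (0.0505) and after centring (difference -0.29, limma adjusted p = 0.153).

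Of 9 further partners of FGF receptors, 2 were called higher in F344 DA (Kl and L1cam) and 2 in the average (Kl and Ncam1), and no gene lower. In BN 0 were called by limma, with 3 at an unadjusted p under 0.05. Kl encodes klotho, the co-receptor that lets FGF23 bind its receptor, and was at 8.93 and 7.72 in BN DA, 7.20 and 6.91 in BN aorta, 9.18 and 8.83 in F344 DA and 7.09 and 7.04 in F344 aorta. All DA arrays were higher than all aorta arrays, and BN DA replicate 1 was well above replicate 2. The difference was 1.94 ± 0.32 SE in F344 (3.84-fold, limma adjusted p = 0.00485) and 1.60 ± 0.23 in the average (3.04-fold, adjusted p = 0.0019), and both calls held in every alternative. Its ligand gene Fgf23 lay between 5.11 and 5.79 on the arrays and was dim. Ncam1, a cell adhesion molecule that binds FGF receptors, was at 11.90 and 11.59 in BN DA, 11.51 and 11.10 in BN aorta, 11.93 and 11.83 in F344 DA and 11.44 and 11.27 in F344 aorta (averaged difference 0.48 ± 0.12 SE, limma adjusted p = 0.0255). Within each strain its DA arrays were higher than its aorta arrays. That call was lost without F344 DA replicate 1 (limma adjusted p = 0.0862) or 2 (0.0723), F344 aorta replicate 1 (0.0585) or 2 (0.0999) or BN aorta replicate 2 (0.0699). L1cam, another such adhesion molecule, was dim at 6.20 and 6.54 in BN DA, 6.13 and 6.53 in BN aorta, 6.64 and 6.46 in F344 DA and 6.01 and 5.82 in F344 aorta. These values lay below the chemosensory level of each array, and in F344 the chemosensory genes had a median tissue difference of 0.79 in the same direction, whose part in the result was not tested. The F344 call (0.63 ± 0.18 SE, limma adjusted p = 0.0442) was lost without F344 DA replicate 1 (0.197) or 2 (0.128) or F344 aorta replicate 1 (0.124) or 2 (0.235), after quantile normalization (0.122) or loess (0.0915), and without chemosensory receptor genes (0.058).

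Of 11 genes for the processing and partners of PDGFs, 2 were called higher and 1 lower in F344 DA, and 2 higher and 3 lower in the average. In BN 0 were called by limma, with 6 at an unadjusted p under 0.05. Pcsk5, a proprotein convertase that cleaves growth factor precursors, was at 10.44 and 9.70 in BN DA, 9.25 and 9.26 in BN aorta, 10.55 and 10.50 in F344 DA and 9.18 on both F344 aorta arrays, higher on all DA arrays. The difference was 1.34 ± 0.21 SE in F344 (2.54-fold, limma adjusted p = 0.00362) and 1.08 ± 0.15 in the average (2.11-fold, adjusted p = 0.00154). Ptprj, a phosphatase that acts on PDGF receptors, was at 9.81 and 9.84 in BN DA, 10.45 and 10.28 in BN aorta, 9.42 and 9.32 in F344 DA and 10.50 and 10.43 in F344 aorta, lower on all DA arrays. Its difference was -1.10 ± 0.12 SE in F344 (2.14-fold lower, limma adjusted p = 0.00115) and -0.82 ± 0.09 in the average (1.77-fold lower, adjusted p = 0.000538).

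Plat encodes tissue plasminogen activator, a protease known to activate PDGF-C. It was at 10.15 and 10.56 in BN DA, 9.81 and 9.80 in BN aorta, 10.71 and 10.77 in F344 DA and 10.18 and 10.19 in F344 aorta. Within each strain the DA arrays of Plat were higher, and the averaged difference was 0.55 ± 0.10 SE (1.47-fold, limma adjusted p = 0.00717). The averaged calls of Pcsk5, Ptprj and Plat and the F344 calls of Pcsk5 and Ptprj held in every alternative. The F344 call of Plat (difference 0.56 ± 0.15, limma adjusted p = 0.0362) was lost without F344 DA replicate 1 (0.123) or 2 (0.19), F344 aorta replicate 1 (0.177) or 2 (0.16) or either BN aorta array (0.0544).

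**Figure D5:**
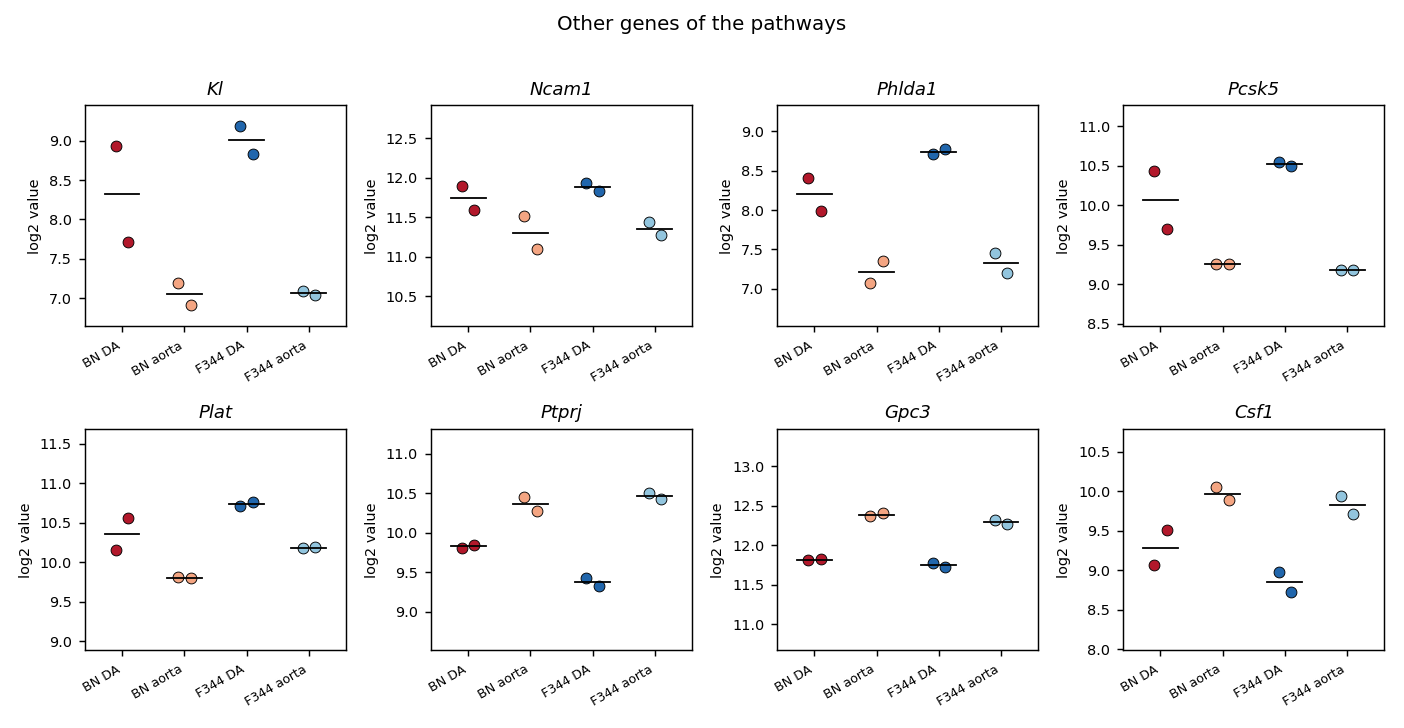
Log2 values of 8 called genes that work with FGF and PDGF receptors or encode other ligands, with each array as a point, the group mean as a line, and BN DA, BN aorta, F344 DA and F344 aorta from left to right; every panel spans the same range of log2 units. Kl, Phlda1 and Pcsk5 are higher, and Ptprj, Gpc3 and Csf1 lower, on all 4 DA arrays than on all 4 aorta arrays.

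The ligands of other receptor tyrosine kinases were set beside those of the FGF and PDGF families. Of 23 such genes, none was called higher and 4 lower in F344 DA, against 8.87% of all genes higher and 5.12% lower. None was called higher and 5 lower in the average, which is built from the same arrays, against 10.1% and 6.47% of all genes. In BN 0 were called by limma, with 8 (of 23) and 14.0% of all genes at an unadjusted p under 0.05. Csf1, the growth factor of macrophages, was at 9.06 and 9.51 in BN DA, 10.05 and 9.89 in BN aorta, 8.98 and 8.72 in F344 DA and 9.94 and 9.71 in F344 aorta (averaged difference -0.83 ± 0.13 SE, 1.78-fold lower, limma adjusted p = 0.0025). Vegfd, a lymphatic growth factor, was at 9.99 and 11.11 in BN DA, 11.57 and 11.80 in BN aorta, 10.35 and 10.33 in F344 DA and 11.42 and 11.36 in F344 aorta (averaged difference -1.09 ± 0.20 SE, 2.14-fold lower, limma adjusted p = 0.00656). Both were lower on all DA arrays, and both averaged calls held in every alternative. Between strains in DA, 3 of these ligands were called higher and 2 lower in BN, against 2.43% of all genes higher and 2.1% lower. Ntf3, a nerve growth factor relative, was at 8.87 and 9.55 in BN DA against 8.46 and 8.07 in F344 DA, and at 9.43 and 9.36 in BN aorta against 8.59 and 8.40 in F344 aorta (averaged difference 0.92 ± 0.16 SE, 1.9-fold higher in BN, limma adjusted p = 0.0225). That call was lost without F344 DA replicate 1 (limma adjusted p = 0.0576) or 2 (0.109), F344 aorta replicate 1 (0.0679) or 2 (0.111) or BN aorta replicate 1 (0.0839) or 2 (0.0695).

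Among the 44 FGF and PDGF genes as a whole, 12 were called in at least 1 contrast and 32 in none. The share of all genes called in at least 1 contrast was not computed. Shares in single contrasts, 0.0% to 16.6% of all genes, are no match for a count over several contrasts. The 12 are therefore given only as a count and not read as particular to these genes. Of the 12, 8 were bright and 4 dim (Fgf9, Fgf13, Fgf14 and Fgf16). The bright members had a median averaged tissue difference of -0.12 and the dim members of -0.04.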

How the data were processed

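RNA of 8 samples, 2 in each of 4 groups, was measured on Affymetrix Rat Gene 1.0 ST arrays from 150 ng of total RNA of pooled tissue. The deposited values are log2 expression values that the authors made with RMA, per the submitters' processing notes (its version, settings and genome build: not given in the sources used here). In all, the table held 29215 probe sets, of which 15310 had 1 gene symbol in an annotation of 2016, 323 had several and 13582 were unnamed. The probe set with the highest mean stood for each gene, which left 14506 genes, and all 44 members matched RefSeq by Entrez number.

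One linear model with 4 group means was fitted to all genes and 8 arrays with limma 3.58.1 in R 4.3.3, with moderated variances, and p-values were adjusted over all genes by Benjamini-Hochberg for each contrast, with a threshold of 0.05. The procedure was tested on simulated data, in which noise was drawn independently for each gene and array. Members called in any contrast are given by array, as are the brightest uncalled gene of each role, every receptor gene and the 3 uncalled members with the smallest interaction p; of each pathway list, up to 3 called genes with the largest averaged differences are named. The members and the lists were chosen with earlier results of these data known. Alternatives were a variance trend, robust moderation, array weights, no dim genes, repeated quantile normalization, cyclic loess, centring on brighter genes, the mean of the probe sets of a gene, no chemosensory receptor genes, a replicate block, fits with the 4 arrays compared and leaving out each array. The number of arrays limits the precision.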

Additional observations from a re-analysis of the deposited data

How the results depend on the processing

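None of the 12 called genes changed sign in any alternative, and of the uncalled differences printed with an error for the 44 genes, which were recomputed in the same way, the averaged tissue difference of Fgfr4 did, at -0.02 after repeated quantile normalization. Other uncalled differences were not recomputed singly. The share of all genes called was 14.0% in F344, 25.6% with array weights and 23.2% with the 4 F344 arrays. In BN it was 1.81%, then 0.689%, 1.55%, 1.24% and 0.11% with weights, quantile normalization, centring and the 4 BN arrays. Between strains in DA it was 4.53%, then 2.25%, 4.4%, 3.16% and 0.813% with weights, quantile normalization, loess and the 4 DA arrays. In the same contrast it was 6.7% without dim genes and 3.47% with centring. In the strain average it was 2.65%, then 2.91%, 2.5% and 1.48% with quantile normalization, loess and centring. In F344 the 7 genes called between tissues became 12 with array weights, 11 with the 4 F344 arrays and 2 to 9 when single arrays were left out. In BN the 2 genes became 1 with array weights, with quantile normalization, with centring on brighter genes and with the 4 BN arrays, and 1 to 3 when single arrays were left out. The averaged tissue count of 9 became 6 to 10 without single arrays. Between strains in DA the 2 genes became 0 with array weights, quantile normalization, cyclic loess or the 4 DA arrays, 1 without dim genes or with centring, and 0 to 2 without single arrays. In the strain average the 3 genes became 0 with quantile normalization, 1 with loess or centring, and 0 to 5 without single arrays. With the replicate number as a block, 8 genes were called in F344, 4 in BN, 10 in the tissue average, 2 between strains in DA and 4 in the strain average; each of these held the genes called without the block, and the genes gained were Fgf13 in F344, Fgfr2 and Pdgfrl in BN, Fgfrl1 in the tissue average and Fgf14 in the strain average. With the block, 19.8% of all genes were called in F344, 3.78% in BN and 22.2% in the tissue average, against 14.0%, 1.81% and 16.6% without it. Between strains the shares were 10.9% in DA and 6.66% in the average, against 4.53% and 2.65%. The sample titles give only a replicate number, and the main fit did not pair samples by it. Correlations of replicate differences between groups were all positive, 0.028 to 0.521, with 5 of the 6 above 0.1 and 1 below it. What samples of the same replicate number shared was not tested. In aorta between strains and in the interaction the count was 0 in every alternative. Changes in dim genes, near the level of chemosensory receptor genes, are the least certain, and 2 arrays a group limit all results.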
